A study of Mus musculus with 14 samples.

Results

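The response to rosiglitazone was examined in carotid arteries of Rbp7 knockout mice, in 8 of the 14 RNA-seq libraries of the series. The knockout (KO) libraries fell into 4 exposed to rosiglitazone and 4 exposed to DMSO, the solvent control. The 6 wild-type (WT) libraries, 3 for each exposure, served as an independent reading of the same drug. They also entered the fits over all 14 libraries, among them the test of a difference between genotypes. All libraries were labelled as carotid artery of male C57BL/6J mice, exposed for 24 h, with rosiglitazone at 10 µM. The design text describes exposure of removed vessels and the treatment protocol describes exposure of the mice, so the labels do not settle where the drug acted. The labels name no knockout allele, no age and no pooling, and they do not say that replicates came from separate animals, so p-values measure the spread between libraries, which may be technical. The KO libraries carry numbers from 2 to 5 and from 18 to 21, which give the replicate numbers 1 and 2 and the replicate numbers 3 and 4 of each exposure.

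Rosiglitazone is a thiazolidinedione that binds and activates PPARγ, a nuclear receptor that pairs with the retinoid X receptor on DNA and raises transcription of genes of lipid uptake, storage and metabolism. Rbp7 encodes a small intracellular retinol-binding protein that is known in vessels as an endothelial gene under PPARγ control. Activation of PPARγ in the vessel wall is known for effects on endothelial function and vascular tone.

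Values were TPM, a transcript's length-corrected share of its library on a fixed total, for 63244 transcript identifiers, of which 25920 were tested because they reached 1 TPM in at least 4 of the 8 KO libraries. No identifier was paired with a gene name here, so transcripts are given by identifier. The knockout itself, the PPARγ target genes and the markers of endothelium, smooth muscle and perivascular fat were therefore not checked, and no sequence is shown. In whole tissue, fewer cells of a type and less RNA per cell cannot be told apart.

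The KO libraries were first compared as wholes. Transcripts at 1 TPM or more numbered 25286, 25561, 25258 and 27686 in the DMSO libraries and 24372, 24850, 23996 and 26716 in the rosiglitazone libraries, an overlapping pair of groups (exact permutation test, two-sided p = 0.314). Within each replicate number the rosiglitazone library had the lower number. The median log2 difference over all tested transcripts was also below 0 within each, at -0.14, -0.02, -0.08 and -0.10. The most abundant 2 transcripts of each library held 33.2% to 46.6% of its TPM with DMSO and 37.5% to 48.5% with rosiglitazone (exact permutation p = 0.629). The median Spearman correlation was 0.896 for library pairs that shared an exposure (12 pairs) and 0.902 for those that did not (16 pairs). The first principal component held 29.5% of the variance and set both libraries of replicate number 4 apart, at scores of 81.5 with DMSO and 46.1 with rosiglitazone against scores below 0 in the other 6. Those 6 separated by exposure on the same component, at -14.6, -10.9 and -6.40 with DMSO and -31.7, -28.9 and -35.0 with rosiglitazone, and in replicate number 4 the rosiglitazone library was again the lower. Counts that rest on these libraries are given below with and without them. Read depth is unknown, because TPM keeps none.

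In KO artery 5 transcripts passed an adjusted p under 0.05 between rosiglitazone and DMSO (limma on log2(TPM + 1), Benjamini-Hochberg over all tested transcripts), 1 higher and 4 lower, which is 0.0193% of those tested. All 5 entered the test only through the KO group where they were high, and so had to differ, and their adjusted p-values are given as descriptions. With every transcript tested and no minimum, limma called 6 transcripts, 2 of them among the 5 (uc011yuf.1 at an adjusted p of 0.0269 and uc009bev.1 at 0.0321). There uc033hga.1, uc033jnf.1 and uc007mom.1 missed the threshold (0.138, 0.181 and 0.0571). All 5 were scarce, and in 4 of them every library of the lower group was listed at 0. The rule for naming transcripts covered 2 of the 5, and the other 3 are named because their number is small, after their values were seen. A log2 difference against a group at 0 depends on the added 1 TPM and is no fold change.

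Transcript uc033hga.1 was the 1 called higher. Every KO DMSO library had it at 0, and it stood at 9.24, 3.58, 3.24 and 7.18 TPM in the 4 KO rosiglitazone libraries. The log2 difference was 2.67 ± 0.30 (SE, n = 4 and 4, limma adjusted p = 0.0425). In WT artery the order was the opposite, with 6.33, 13.1 and 10.3 TPM under DMSO and 0 in all 3 rosiglitazone libraries.

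Transcript uc033jnf.1 was called lower, in the reverse order of uc033hga.1. It stood at 6.81, 5.52, 10.2 and 28.0 TPM in the KO DMSO libraries and at 0 in every KO rosiglitazone library. The log2 difference was -3.50 ± 0.41 (SE, limma adjusted p = 0.0425). In WT artery every DMSO library had it at 0, and it stood at 5.60, 10.6 and 5.88 TPM with the drug.

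Transcript uc011yuf.1 fell from 6.81, 11.0, 5.11 and 7.00 TPM to 0 in all 4 KO rosiglitazone libraries, a log2 difference of -3.04 ± 0.23 (SE, limma adjusted p = 0.00441). Its WT groups overlapped, at 5.54, 5.42 and 0 TPM with DMSO and 0, 10.6 and 17.6 TPM with rosiglitazone. It was the call that held when any single KO library was left out (limma adjusted p from 0.00502 to 0.0427). The call was lost with all 14 libraries in 1 fit (limma adjusted p = 0.808) and with replicate number as a block (0.242).

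Transcript uc009bev.1 fell from 3.29, 4.24, 2.28 and 3.73 TPM to at most 0.00329 TPM in the KO rosiglitazone libraries, a log2 difference of -2.11 ± 0.21 (SE, limma adjusted p = 0.0237). In WT artery it was already low without the drug, at 1.13, 0.0943 and 0.00612 TPM with DMSO, against 0.105 TPM at most with rosiglitazone. Transcript uc007mom.1 fell from 2.28, 3.72, 3.14 and 1.86 TPM to 0 in all 4 KO rosiglitazone libraries, by -1.88 ± 0.22 (SE, limma adjusted p = 0.0425). Its WT values were 2.33, 0 and 0 TPM with DMSO and 2.77, 2.92 and 3.12 TPM with rosiglitazone.

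The calls other than uc011yuf.1 were each lost in most of the fits that left out 1 library. Those of uc033hga.1, uc033jnf.1, uc009bev.1 and uc007mom.1 ended in 7, 6, 6 and 8 of the 8 fits that left out 1 library. Only the fit without KO rosiglitazone replicate 3 kept uc033hga.1 (limma adjusted p = 0.0483), and only those without KO DMSO replicate 2 or 4 kept uc033jnf.1 (0.0335 and 0.0147). The fits without KO DMSO replicate 3 or KO rosiglitazone replicate 4 kept uc009bev.1 (0.0270 and 0.0370), and none of the 8 kept uc007mom.1 (0.0521 to 0.178). Without both libraries of replicate number 4, limma called 0 transcripts, with 1442 at an unadjusted p under 0.05. No direction turned in any of these fits. Without any 1 of the KO rosiglitazone libraries, the log2 difference of uc007mom.1 stayed at -1.88, yet its limma adjusted p was 0.0929 to 0.159. A fit without 1 library also has fewer values, so a lost call does not show that it rested on that library.

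**Figure D1:**
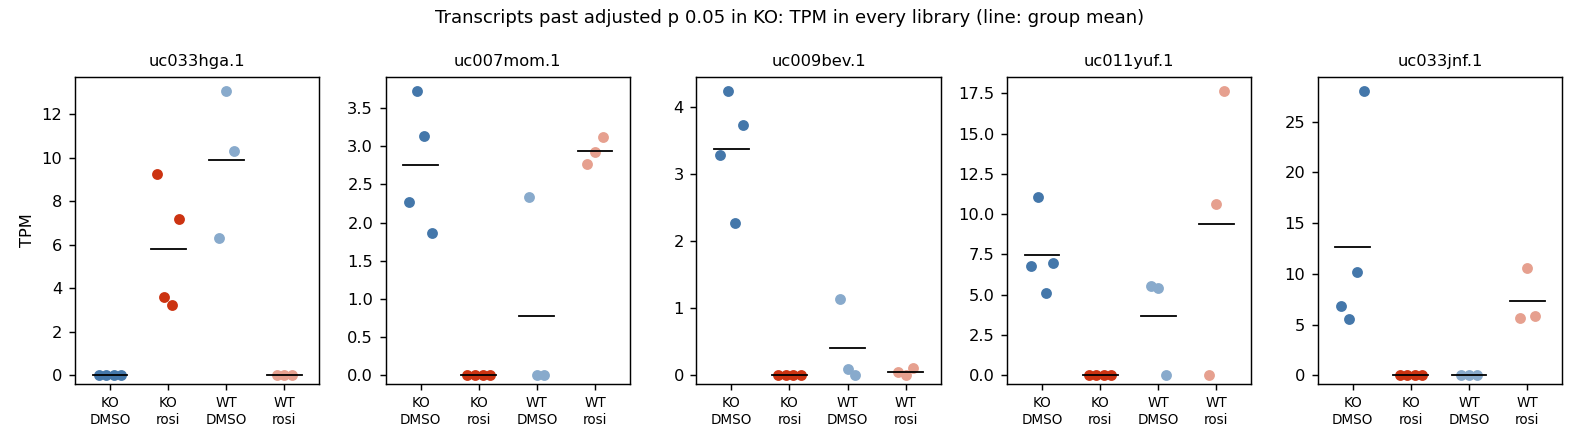
TPM of the 5 transcripts called in KO artery, 1 panel each, with every library as a point in the order KO DMSO, KO rosiglitazone, WT DMSO and WT rosiglitazone. The KO groups do not overlap in any panel, while uc033hga.1 and uc033jnf.1 show the opposite order in WT artery.

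Reads are divided by a transcript's effective length to give TPM, so where whole reads were assigned, transcripts of equal effective length differ by whole multiples of what 1 read is worth. The tool named in the submitters' processing notes can also assign fractions of reads, and uc009bev.1, at 0.000507 TPM and less in 3 rosiglitazone libraries, did not follow whole steps. The values of 3 of the 5 called transcripts were whole multiples, within 0.1%, of a step shared with other transcripts of the same library. In units of that step, uc033jnf.1 stood at 1, 1, 2 and 4 in the KO DMSO libraries, 8 in all, and at 1, 2 and 1 in the WT rosiglitazone libraries. Transcript uc011yuf.1 stood at 1, 2, 1 and 1 in the KO DMSO libraries, 5 in all. Transcript uc033hga.1 stood at 3, 1, 1 and 2 in the KO rosiglitazone libraries, 7 in all, and at 2, 4 and 3 with DMSO in WT artery. Thus 3 of the calls compare 5 to 8 steps over 4 libraries with none over the other 4. Whether a step is 1 read was not tested. Values of uc007mom.1 likewise shared no such step with another transcript.

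Further transcripts stood at 1 TPM or more in all 4 KO libraries of an exposure and in no library of the other. There were 44 of them among the 25920 tested, 34 present with DMSO and 10 with rosiglitazone, and they included all 5 called. Their number is a description, since each entered the test through 1 group alone. In 6 of the 34 every rosiglitazone library was listed at 0, and in 1 of the 10 every DMSO library was. Of the 44, 39 had WT libraries of the same exposure on both sides of 1 TPM. The share among other transcripts of similar level was not counted.

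The same question was put within replicate numbers, as rosiglitazone minus DMSO of the libraries with the same number. Transcripts higher by at least 1 on the log2 scale in all 4 differences numbered 10 (0.0386% of those tested), and those lower by as much numbered 21 (0.081%). Single differences moved far more transcripts: 736, 974, 657 and 944 were higher by at least 1 in replicate numbers 1 to 4, and 1167, 1149, 1180 and 1280 were lower by at least 1. Few of these moves were thus common to all 4. The 10 had mean levels of 1.21 to 11.8 TPM and the 21 of 1.14 to 9.06 TPM, so a single transcript of the 31 was at 10 TPM or more. A KO group was listed at 0 throughout in 1 of the 10 and 6 of the 21, and the called transcripts were 1 of the 10 and 4 of the 21. Without both libraries of replicate number 4, 23 transcripts were higher and 56 lower by at least 1 in the remaining 3 differences.

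**Figure D2:**
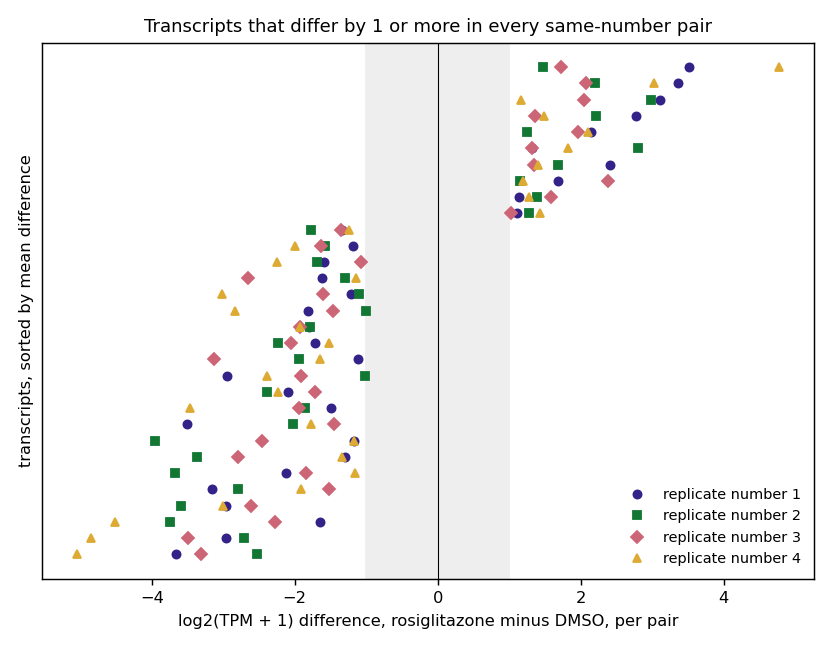
Change from DMSO to rosiglitazone in log2(TPM + 1) within each replicate number, for the transcripts that moved by at least 1 the same way in all 4. The 10 higher and 21 lower transcripts were chosen by these values, so their agreement is not a result.

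Transcripts past an unadjusted p of 0.05 leaned to lower values with rosiglitazone. In limma, 237 were higher (0.914% of those tested) and 634 lower (2.45%), 871 in all or 3.36%. Groups did not overlap in 125 transcripts that were higher (0.482%) and 381 that were lower (1.47%). Without both libraries of replicate number 4, these numbers were 494 (1.91%) and 2526 (9.75%). There 3 libraries separate from 3 more easily than 4 from 4, so the counts cannot be set against each other. With exposures assigned at random, 4 libraries separate from 4 with a probability of 0.0286, and an unadjusted p is under 0.05 with a probability of 0.05. With all 8 libraries, the 506 transcripts without overlap and the 871 past 0.05 were below these shares. Neither count by itself shows a drug response. The median log2 difference over all tested transcripts was -0.09. With the libraries scaled by median of ratios the median became 0.01 and the split became 591 higher and 503 lower, and quantile normalization gave 583 and 497. The turn was not uniform: scaled by median of ratios, transcripts under 2 TPM still leaned lower, with 84 higher and 150 lower, while those from 10 to 100 TPM leaned higher, with 210 and 80. Groups that did not overlap then numbered 393 higher and 331 lower by median of ratios, and 387 and 298 by quantile normalization. A general direction of the KO response cannot be read from these counts.

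The called changes lay in the 2 abundance classes with the largest median SE. Their own SEs were above the median of their class for uc033hga.1 (0.30) and uc033jnf.1 (0.41). They were below it for uc011yuf.1 (0.23), uc009bev.1 (0.21) and uc007mom.1 (0.22). Among the 5418 transcripts with a mean under 2 TPM the median SE of the log2 difference was 0.27 and 2 fell at an adjusted p under 0.05 (limma). Among the 12320 from 2 to 10 TPM the median SE was 0.25, with 1 higher and 2 lower. The 7518 from 10 to 100 TPM and the 664 at 100 TPM or more had median SEs of 0.18 and 0.14. In these more precise classes limma called 0 transcripts, with 51 higher and 148 lower, and 14 higher and 12 lower, at an unadjusted p under 0.05.

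**Figure D3:**
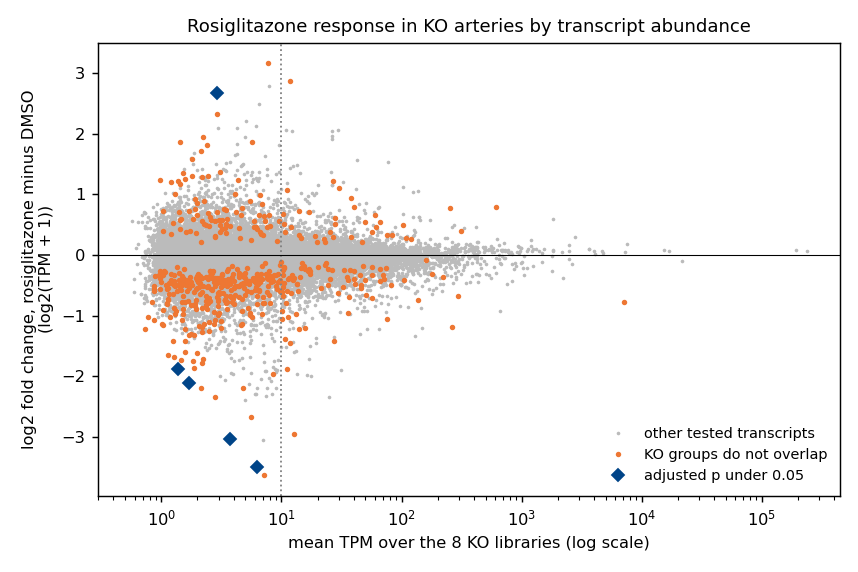
Log2 difference of each tested transcript, KO rosiglitazone minus KO DMSO, against its mean level on a log scale, with the 5 called transcripts marked. The marked points all lie below 10 TPM, and the spread of the differences narrows towards abundant transcripts.

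No change was called among the most abundant transcripts. The 20 with the highest mean, 2226 to 235817 TPM, had log2 differences between -0.77 and 0.29 with a median of 0.07. None was called by limma, none had rosiglitazone libraries all above the DMSO libraries, and 1 had them all below.

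Among transcripts with a mean of 10 TPM or more, uc008lwi.2 had the smallest p of those higher with rosiglitazone and uc009qrp.1 of those lower, and the naming rule took both. Transcript uc008lwi.2 stood at 38.5, 48.9, 47.1 and 51.4 TPM in the KO DMSO libraries and at 66.2, 70.4, 84.0 and 74.4 TPM in the KO rosiglitazone libraries. Every rosiglitazone library was above every DMSO library, with means of 46.5 ± 5.63 and 73.8 ± 7.62 TPM (SD, n = 4 each) and a ratio of 1.59. The log2 difference of 0.66 ± 0.13 (SE) did not pass the test across all transcripts (limma adjusted p = 0.538). The exact permutation p of 0.0286 is the smallest that 4 against 4 libraries can give, and the transcript was chosen by this contrast.

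In WT artery uc008lwi.2 moved the other way. Its WT values were 59.8, 67.0 and 59.3 TPM with DMSO and 49.4, 51.9 and 49.0 TPM with rosiglitazone, also without overlap, a log2 difference of -0.30 ± 0.12 (SE). The difference between the KO and the WT response was 0.96 ± 0.16 (SE), and it missed the threshold over all transcripts (limma adjusted p = 0.285).

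Transcript uc009qrp.1 was lower with the drug, at 14.1, 28.5, 17.2 and 20.3 TPM in the KO DMSO libraries and 6.79, 8.95, 6.77 and 8.91 TPM in the KO rosiglitazone libraries. The means were 20.0 ± 6.19 and 7.85 ± 1.24 TPM (SD, n = 4 each), a ratio of 0.392, with no overlap. The log2 difference of -1.22 ± 0.21 (SE) did not pass the test (limma adjusted p = 0.426). Its WT libraries stood at 16.8, 20.0 and 26.0 TPM with DMSO and at 20.2, 2.45 and 6.32 TPM with rosiglitazone, so these groups overlapped, and the log2 difference was -1.41 ± 0.47 (SE).

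**Figure D4:**
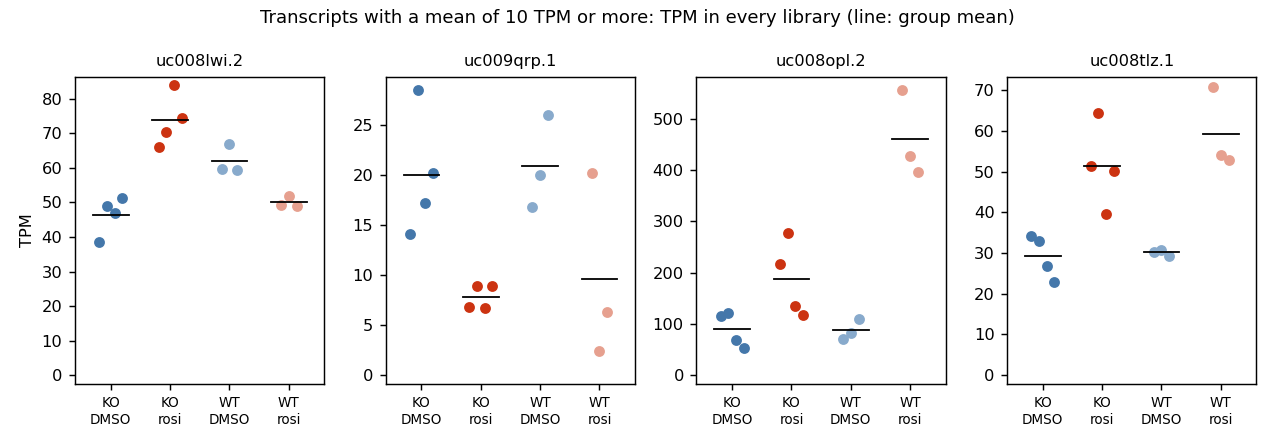
TPM of uc008lwi.2, uc009qrp.1, uc008opl.2 and uc008tlz.1 in each of the 14 libraries by genotype and exposure, with a line at each group mean. The KO rosiglitazone libraries of uc008lwi.2 all lie above the KO DMSO libraries, while its WT libraries lie in the opposite order.

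Transcripts uc008opl.2 and uc008tlz.1 were higher with rosiglitazone within every replicate number of KO artery and did not pass the test. Transcript uc008opl.2 stood at 116, 121, 67.9 and 53.1 TPM with DMSO and 218, 277, 135 and 118 TPM with rosiglitazone, a ratio of means of 2.09 and a log2 difference of 1.05 ± 0.33 (SE, limma adjusted p = 1.00). Its groups overlapped at 1 library each, yet the differences within replicate numbers were 0.91, 1.19, 0.98 and 1.13. The libraries numbered 18 to 21 were lower than those numbered 2 to 5 by a log2 difference of -0.96 ± 0.12 (SE, limma adjusted p = 0.0305), and with that range as a covariate the drug's adjusted p was 0.0679. Transcript uc008tlz.1 stood at 34.1, 33.0, 26.8 and 22.8 TPM with DMSO and 51.3, 64.3, 39.6 and 50.2 TPM with rosiglitazone, without overlap (log2 difference 0.79 ± 0.18, SE, limma adjusted p = 0.827). In WT artery the log2 differences were 2.39 ± 0.35 for uc008opl.2 and 0.94 ± 0.18 for uc008tlz.1 (SE). The KO minus WT response was -1.33 ± 0.46 and -0.15 ± 0.24 (SE, limma adjusted p = 1.00 for both).

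More transcripts passed the threshold between number ranges than between exposures. Between the libraries numbered 18 to 21 and those numbered 2 to 5, limma called 33 transcripts (0.127%), 10 higher and 23 lower in 18 to 21, and 2719 (10.5%) had an unadjusted p under 0.05. None of the 5 drug calls was among the 33, and 19 transcripts passed without both libraries of replicate number 4. The labels do not say what the numbers stand for. With the range as a covariate, the drug call of uc011yuf.1 was left, at an adjusted p of 0.0111, and the other 4 missed the threshold (0.0601 to 0.0679).

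The drug's changes agreed little between the 2 ranges. Across transcripts, the change within 2 to 5 and the change within 18 to 21 had a Pearson r of 0.09 over 25920 transcripts, and 0.17 over the 8182 at 10 TPM or more. Genes are not independent replicates, and all values of a range come from 4 libraries. Of the 129 transcripts higher by at least 1 in both replicate numbers of 2 to 5, 30 (23.3%) were higher in both of 18 to 21, against 17.4% of all transcripts. Of the 192 lower by at least 1, 72 (37.5%) were lower in both of 18 to 21, against 38.9% of all. Chosen the other way round, 29 of 119 (24.4%) were higher again, against 3636 of all 25920 transcripts, and 75 of 225 (33.3%) were lower again, against 34.7%.

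Transcripts whose KO groups did not overlap were then read in the WT libraries, which share no library with them and took no part in choosing them. Among abundant transcripts the WT artery mostly moved the same way. Of the 37 at 10 TPM or more that were higher with rosiglitazone in KO artery, 31 (83.8%) were also higher in WT artery, against 38.2% of all 8182 transcripts at that level. In 19 of them (51.4%) the WT groups did not overlap either, in the same direction, against 2.58% of all, and in 2 (5.41%) they did not overlap in the opposite direction, against 6.31% of all. The median log2 difference was 0.41 in WT artery and 0.46 in KO artery, where the choice of transcripts sets it.

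Lower transcripts read likewise. Of the 84 at 10 TPM or more that were lower with rosiglitazone in KO artery, 76 (90.5%) were lower in WT artery, against 61.8% of all at that level. The WT groups did not overlap in the same direction in 30 (35.7%), against 6.31% of all, and in the opposite direction in 0. Median log2 differences were -0.31 in WT and -0.41 in KO artery. No transcript at 10 TPM or more passed the adjusted threshold in KO artery.

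Below 10 TPM the reading was weaker. Of 88 higher transcripts 47 (53.4%) were higher in WT artery, against 38.3% of all below 10 TPM, and the WT groups did not overlap the same way in 8 (9.09%, against 2.74%). Of 297 lower transcripts 204 (68.7%) were lower in WT artery, against 61.6%, and 43 (14.5%, against 6.89%) did not overlap. The WT medians were 0.03 and -0.14. Of the transcripts that moved by at least 1 in all 4 KO differences, 7 of the 10 higher were also higher in WT artery, against 38.3% of all tested, and 10 of the 21 lower (47.6%) were lower, against 61.7%. The WT groups separated the same way in 0 of the 10 (against 2.69% of all) and 0 of the 21 (against 6.71%), and the opposite way in 1 and in 2. Sets of this size are too small to tell these counts from the shares of all transcripts.

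The scaling of the libraries moves the shares of all transcripts, so the reading was repeated under each, over all transcripts that did not overlap and reached 10 TPM. Scaled by median of ratios, 149 of 185 higher transcripts (80.5%) were also higher in WT artery, against 58.6% of all, and 39 of 47 lower ones (83.0%) were lower, against 41.4%. Quantile normalization gave 103 of 123 (83.7%, against 51.1%) and 63 of 75 (84.0%, against 48.8%). Without both libraries of replicate number 4, where 3 libraries stand against 3, the sets were larger, with 87 of 124 higher (70.2%, against 38.2%) and 581 of 659 lower (88.2%, against 61.8%). The share was above that of all transcripts in both directions in each of these 3 settings.

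**Figure D5:**
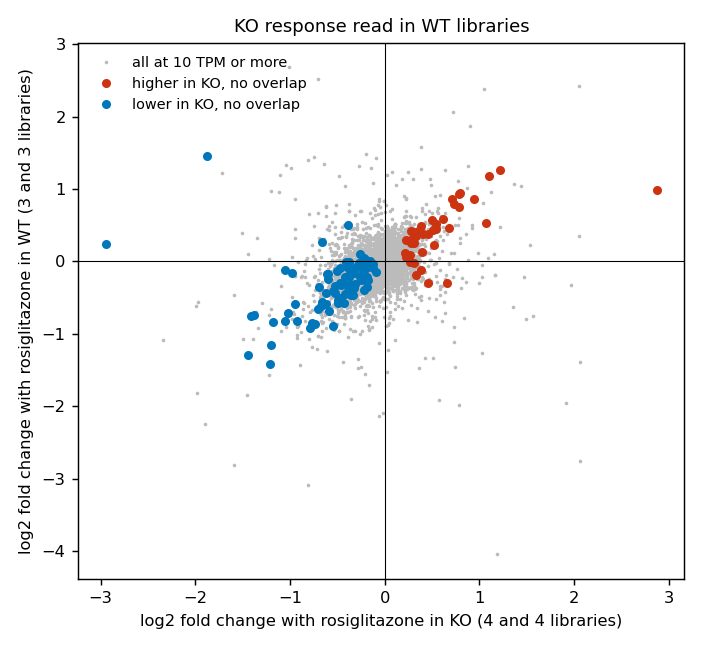
Log2 difference with rosiglitazone in WT artery against that in KO artery, for transcripts with a mean of 10 TPM or more. Those whose KO groups did not overlap are coloured by direction. Of these, 31 of 37 higher and 76 of 84 lower transcripts moved the same way in WT artery.

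Across all tested transcripts, the KO change and the WT change had a Pearson r of 0.17, and 0.34 over the 8182 at 10 TPM or more. These are higher than the 0.09 and 0.17 between the number ranges of KO artery, where each change rests on 2 libraries per exposure.

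Whether the response differed between the genotypes was tested as the KO difference minus the WT difference over all 14 libraries. It passed for 2 transcripts (limma, 0.00772% of those tested), and both were among the KO calls and had entered the test through the KO group where they were not 0, which fixed the KO side of the difference: uc033hga.1, at 6.06 ± 0.42 (SE, adjusted p = 4.68e-05), and uc033jnf.1, at -6.52 ± 0.56 (SE, adjusted p = 0.000307). The other 3 KO calls missed it, uc011yuf.1 at -3.83 ± 1.18, uc009bev.1 at -1.77 ± 0.36 and uc007mom.1 at -3.28 ± 0.49 (SE, adjusted p = 0.126 for the last). An unadjusted p under 0.05 was reached by 465 transcripts (limma, 1.79%), a share below the 0.05 that this threshold gives without any difference. For these 2 the filter fixed the KO side, so the test by itself cannot show that the genotypes differ. For the other transcripts the KO and the WT response were not shown to differ, which does not show that they are alike.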

How the data were processed

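Carotid artery RNA had been extracted with Trizol and a column with DNase treatment, per the labels' protocols. The authors deposited 1 table of TPM values for 63244 transcript identifiers in 14 libraries. The submitters' processing notes name kallisto, sleuth, FastQC and the builds mm10 and GRCm38, with versions not given in the sources used here. TPM is scaled to the same total in each library, so it keeps no read depth, and a transcript's value moves when abundant transcripts change. No identifier matched the gene tables at hand, so gene names, gene lists and sequences were not used here.

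Transcripts with 1 TPM or more in at least 4 of the 8 KO libraries were kept. Values were taken as log2(TPM + 1) and fitted with limma 3.58.1 in R 4.3.3 (trended empirical Bayes, 2 KO groups alone), with two-sided p-values and Benjamini-Hochberg adjustment over all 25920 tested transcripts. The difference between genotypes was fitted over all 14 libraries. Of the tested transcripts, 209 fell into 72 sets with identical values in every library. The scripts were checked on simulated data. Single values were compared by exact permutation tests. By rule, the text names, in each direction, the called transcript with the largest log2 difference and the transcript with the smallest p among those with a mean of 10 TPM or more. The transcripts, rules and lists were chosen with earlier results of these data known. Other pseudocounts, filters, scalings, fits and left-out libraries were tried.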

Additional observations from a re-analysis of the deposited data

Results flagged for a closer look

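In groups of 4 libraries, a value was set apart when its gap to the nearest other, divided by the range of the group, was above Dixon's 95% critical value for 4, which chance gives in about 1 in 20 groups. Of 26 sets of values tested, 5 were past it. Among them were these measures of whole libraries, set apart by replicate number 4: the count of transcripts that reached 1 TPM in KO DMSO artery (gap ratio 0.875) and the first principal component in KO DMSO (0.915) and KO rosiglitazone artery (0.925). The median Spearman correlation of a KO DMSO library with the others also stood apart (0.910). The fifth was the TPM of uc009bev.1 with rosiglitazone (0.846), where all 4 libraries were at 0.00329 TPM or lower.

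The test of the KO minus WT drug response (limma) passed for uc033hga.1, at 6.06 on the log2 scale, and for uc033jnf.1, at -6.52. Each was listed at 0 in every library of 1 KO and 1 WT group, with the exposures exchanged between the genotypes. Both entered the test through the 1 KO group where they were not 0, so the test by itself cannot show that the genotypes differ.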

How the results depend on the processing

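The 5 calls depended on the settings, and no named transcript changed direction. The balance of higher and lower transcripts did turn with the scaling, with 125 higher and 381 lower without overlap as deposited, 393 and 331 by median of ratios, and 387 and 298 by quantile normalization. With no minimum limma called 6, of which 2 were among the 5. The 5 became 0 with a pseudocount of 5 TPM, 0 with the 1 TPM minimum in all 8 libraries, 0 in numbers 18 to 21 alone and 0 without both libraries of replicate number 4, with 876, 602, 688 and 1442 transcripts at an unadjusted p under 0.05 in limma. They became 2 with quantile normalization, 3 with robust limma and 1 with the number range as a covariate. Without transcripts at 0 in 3 or more libraries there was 1 call, and numbers 2 to 5 alone gave 3, which included none of the 5. The minimum in all 8 libraries took all 5 out before the test. Leaving out transcripts at 0 in 3 or more libraries took out all of the 5 but uc009bev.1. Leaving out 1 library gave 1 to 7 calls. By setting, calls ended in 8 of 15 (uc033hga.1), 10 of 15 (uc033jnf.1), 6 of 15 (uc011yuf.1), 7 of 16 (uc009bev.1) and 12 of 15 (uc007mom.1), and uc008lwi.2, uc009qrp.1, uc008opl.2 and uc008tlz.1 passed in none of 17.

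With a replicate block limma called 0 transcripts, with 2423 at an unadjusted p under 0.05 and a smallest adjusted p of 0.242. The block lowered the median SE from 0.23 to 0.16 and raised the share at an unadjusted p under 0.05 from 3.36% to 9.35% (limma). The labels do not say that a replicate number marks an animal, so the main fit did not take the numbers as pairs. The deviations of same-numbered libraries correlated at 0.07, 0.09, 0.17 and 0.26, and the 12 correlations between other numbers lay between -0.14 and 0.13. Of the 8 libraries, 4 correlated best with their own number.

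Transcripts higher in all 4 differences numbered 21, 1, 0 and 23 with a pseudocount of 0.1, a pseudocount of 5, the stricter minimum and without replicate number 4, and those lower numbered 41, 2, 0 and 56. Groups without overlap numbered 336 with the stricter minimum and 3020 without replicate number 4, where 3 libraries stand against 3. The test between genotypes passed 4 transcripts with a pseudocount of 0.1 and 1 with 5. Calls between number ranges were 102 by median of ratios, 96 by quantile normalization and 19 without replicate number 4. The settings without replicate number 4 for the differences and the overlaps, and all settings of the reading in WT artery, were chosen after the data were seen. The causes were not tested. Read depth is unknown.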
